A study of Mus musculus with 26 samples.

Results

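Somatosensory cluster 1 (Som_1) is a group of 90 thalamic projection neurons that the authors' clustering set apart within the cells projecting to somatosensory cortex. Its cells were taken as all those carrying the cluster name Som_1 in the deposited cell table. They are 90 of 285 cells of the somatosensory system and 90 of 1972 cells in the whole atlas, which covers 5 thalamocortical projection systems. Som_1 was set against the other clusters of its system, Som_2 (132 cells) and Som_3 (60 cells), and against motor clusters 1 and 2 (Mot_1, 97 cells, and Mot_2, 152 cells) and auditory cluster 1 (Aud_1, 101 cells). Prefrontal cluster 1 (Pfr_1, 44 cells) entered a fit but was not itself compared. All cells are single fluorescent neurons of the mouse thalamus, labelled by a retrograde tracer from their cortical target, microdissected from coronal slices treated with pronases and activity blockers, sorted by hand, lysed in Smart-seq2 buffer and sequenced from libraries that count unique molecular identifiers (UMIs) at the 3' end of transcripts. No drug or genotype was compared: strain and genotype are not given in the sources used here, and all animals are recorded as male. Comparisons within a system are between cell groups. Those with other systems are also between animals that differ in age and mostly in batch. The somatosensory cells came from 3 mice, called animals 1, 2 and 3 here. The cell table gives them the ages 64, 64 and 78 with no unit, and lists the same sort date for animals 1 and 2. The sample records of their plates place all of them in batch 2 of the 3 sequencing batches. The motor, auditory and prefrontal animals have ages of 69 to 112, 70 to 104 and 70 to 91, and each of these systems has animals in batches 1, 2 and 3.

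Relay neurons of the sensory thalamus carry signals from the body, ear or eye to the cortex. They are glutamatergic, they switch between tonic and burst firing through T-type calcium channels, and they lie next to the reticular nucleus, a sheet of inhibitory neurons that is known for its parvalbumin. Neurons that fire fast over long myelinated axons usually hold large amounts of neurofilament, of the potassium channels that shorten the spike, of parvalbumin, which buffers calcium, and of mitochondria. Tnnt1, which encodes the slow skeletal muscle troponin T, is widely used as a marker of first-order relay neurons in the mouse thalamus.

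Every cell of the atlas held between 20509 and 683775 UMIs over 36589 genes, and the Som_1 cells held between 24961 and 451734. Added up per animal, the Som_1 cells gave 1742845 UMIs in animal 1 (6 cells), 5674717 in animal 2 (26 cells) and 8039935 in animal 3 (58 cells). The Som_1 value of animal 1 therefore rests on 6 cells in every comparison. The 3 Som_3 cells of animal 2 were left out of all sums, so Som_3 is represented by 2 animals. The authors flagged 20 cells of the atlas, and none of the 90 Som_1 cells was among them. The same number of cells, 20, carries no cluster name, so this says nothing of the quality of Som_1. The markers of a glutamatergic thalamic neuron were present in Som_1: all 10 were detected, at a summed level of 11160 to 11440 CPM (UMIs of a gene scaled to a total of 1000000 gene UMIs), against 10600 to 11510 CPM in Som_2 and 9115 to 9232 CPM in Som_3. The 10 markers of inhibitory neurons, among them Gad1 and Gad2, summed to at most 0.705 CPM in Som_1, against at most 3.48 CPM in Som_2 and 0.345 CPM in Som_3. Of the 9 markers of the reticular nucleus only Pvalb was above 1 CPM in Som_1, so the parvalbumin described below was measured in cells without the defining inhibitory markers.

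Som_1 was unevenly spread over the animals. It held 8.0% of the somatosensory cells in animal 1, 37.7% in animal 2 and 41.1% in animal 3, a mean of 28.9% ± 18.2 (SD, n = 3). Animal 1 stood well below the others, although it shared its sort date with animal 2. Among the 6 plates of animal 3 the share was 65.2% on plate 16 and between 32.0% and 42.9% on the others. Cells were picked by hand, so these shares describe the collected cells, and how far picking set them was not tested.

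The Som_1 neurons yielded more RNA molecules per cell than their neighbours. The median cell held 289413, 181278 and 119471 UMIs in Som_1 of animals 1, 2 and 3, against 99551, 102822.5 and 57067 UMIs in Som_2 of the same animals. Som_1 was higher in 3 of 3 animals, although the lowest Som_1 median lay close to the highest Som_2 median. The ratio averaged 2.21 (1.76 to 2.91 over the animals). An exact two-sided sign-flip permutation test over the 3 animals gave p = 0.25, which is the smallest p that 3 animals allow. Over Som_3 the ratio averaged 1.74 in the 2 animals that could be compared (1.54 and 1.98), where the smallest p is 0.5.

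Spike-in RNA, a fixed mixture added to each lysate, gives a second scale for the RNA of a cell. For each spike-in UMI the median Som_1 cell held 34.8, 34.2 and 30.7 gene UMIs in the 3 animals, against 14.1, 21.7 and 14.7 in Som_2. These values did not overlap and gave a mean ratio of 2.01 (1.58 to 2.47). The Som_3 cells of animals 1 and 3 held 20.8 and 25.2. Spike-in UMIs themselves were 1.21 times as many per Som_1 cell as per Som_2 cell. The number of detected genes was higher too, with 7494, 6591 and 6641 per median Som_1 cell against 5561, 5615 and 4862 per median Som_2 cell. Cell size is not in the cell table. The clusters were made from the same counts, and the part of depth in the clustering was not tested. The gene comparisons below are therefore made on levels scaled to the total. They were repeated with every cell thinned to 20000 UMIs, except for Mot_1 against Mot_2.

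**Figure D1:**
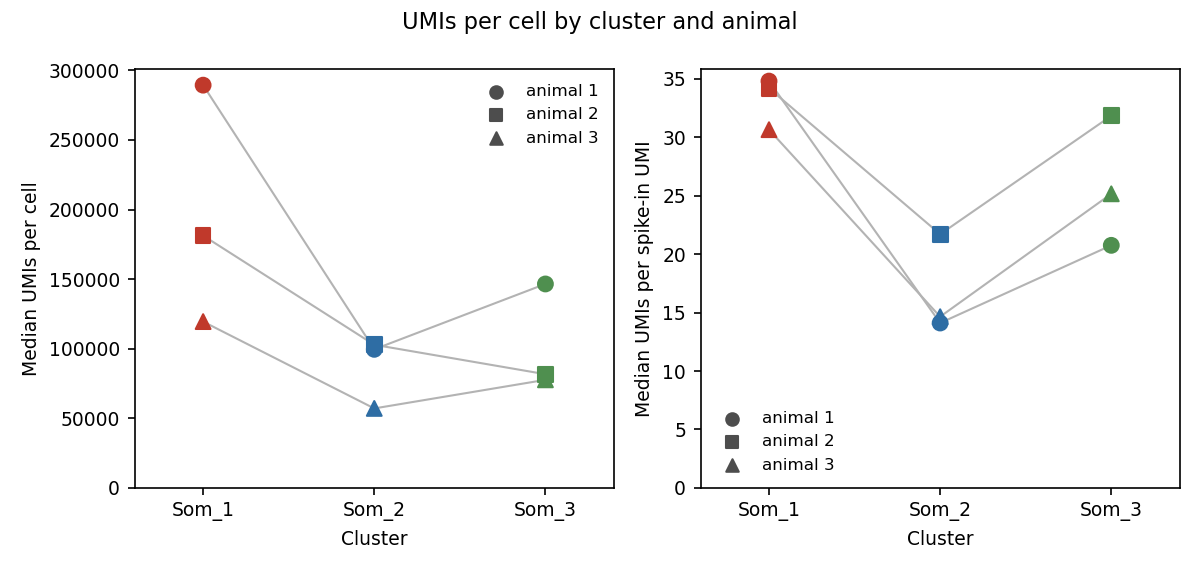
Median gene UMIs per cell (left) and gene UMIs per spike-in UMI (right) for Som_1, Som_2 and Som_3, 1 point per animal. Som_1 lies above Som_2 in each of the 3 animals, and the Som_3 point of animal 2 rests on 3 cells.

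Tnnt1 was abundant in Som_1 but did not set it apart from Som_2. Its gene lies on chromosome 7 of GRCm38, from 4504570 to 4516382 on the minus strand. Its level was 573, 516 and 486 CPM in Som_1 of animals 1, 2 and 3, against 460, 529 and 457 CPM in Som_2 and 76.2 and 41.0 CPM in Som_3 of animals 1 and 3. Som_1 and Som_2 overlapped, and the log2 difference between them was 0.20 ± 0.17 (SE), while Som_1 was far above Som_3, by 3.22 ± 0.23 on the log2 scale. With all cells thinned to the same depth, 81 of 90 Som_1 cells, 124 of 132 Som_2 cells and 20 of 60 Som_3 cells held at least 1 Tnnt1 UMI. Tnnt1 thus marks both Som_1 and Som_2, and the group is called Som_1 here and not Tnnt1 neurons.

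What went together with the Som_1 name was Tnnt1 with parvalbumin. Pvalb lies on chromosome 15, from 78191114 to 78206400 on the minus strand. Pvalb had 226, 135 and 173 CPM in Som_1, against 2.71, 8.85 and 1.77 CPM in Som_2 and 8.28 and 6.19 CPM in Som_3. The lowest Som_1 value was far above the highest value of either neighbour, and the log2 difference was 5.5 ± 0.52 (SE) from Som_2 and 4.55 ± 0.59 from Som_3. Syt2, the synaptotagmin that acts as the fast calcium sensor of release at many quickly firing terminals, lies on chromosome 1 from 134646677 to 134762593 on the plus strand. It had 51.6, 15.7 and 41.8 CPM in Som_1, against 0.387, 0 and 0 CPM in Som_2. No Syt2 UMI was found in the Som_3 sums, so it was at least 74.9-fold higher in Som_1, computed against a floor of 3 counts over the whole Som_3 group.

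In single cells thinned to 20000 UMIs, 60 of the 90 Som_1 cells (66.7%) held both a Tnnt1 and a Pvalb UMI, against 7 of 132 Som_2 cells (5.30%) and 0 of 60 Som_3 cells. A further 21 Som_1 cells held Tnnt1 alone, 7 held Pvalb alone and 2 held neither. Pvalb was seen in 74.4% of thinned Som_1 cells (95% Wilson interval 64.6 to 82.3), against 5.30% of Som_2 cells (2.59 to 10.5) and 5.00% of Som_3 cells (1.71 to 13.7). Before thinning the shares were 86.7%, 9.09% and 15.0%. The share in Som_1 was of the same order in each animal, at 83.3%, 76.9% and 72.4%. Syt2 was found in fewer cells, in 20 thinned Som_1 cells (22.2%) and in none of the thinned Som_2 or Som_3 cells, which allows a share of cells with a Syt2 UMI at that depth of up to 2.27% and 5.00% (3 counts of the cells). These intervals cover counting error only.

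**Figure D2:**
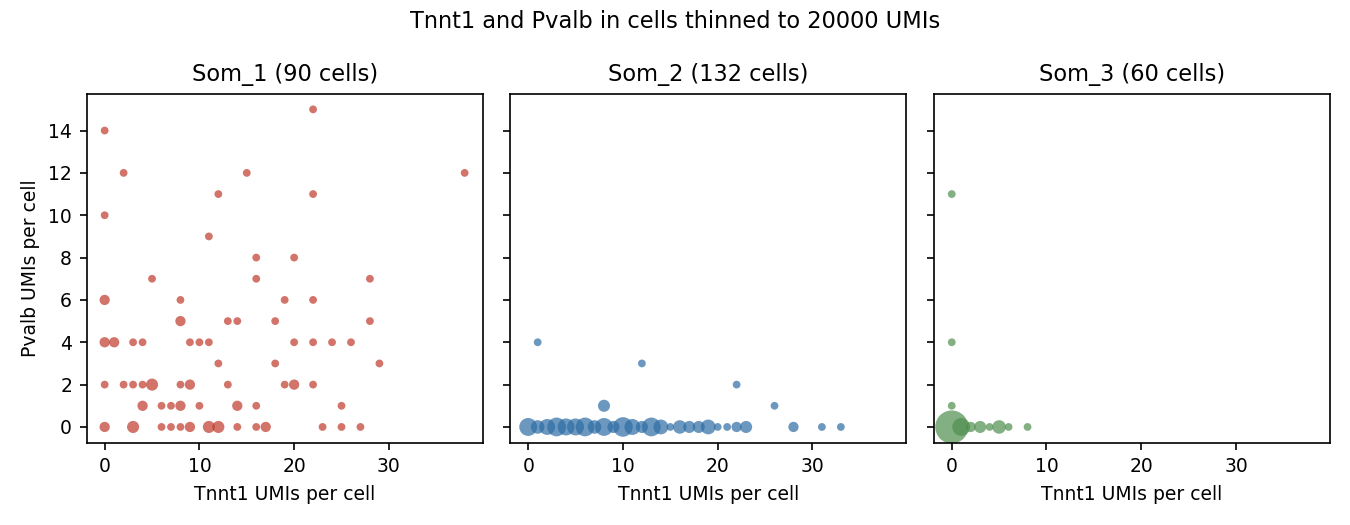
Tnnt1 UMIs against Pvalb UMIs in each Som_1, Som_2 and Som_3 cell after thinning to 20000 UMIs, with the area of a point growing with the number of cells on it. Som_1 cells spread along both axes (60 of 90 with both), Som_2 cells lie along the Tnnt1 axis (117 of 132 with Tnnt1 alone) and Som_3 cells sit near the origin (37 of 60 with neither).

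The promoters of these genes are shown because their levels describe the cluster: Tnnt1 is shared with Som_2, while Pvalb and Syt2 were high in Som_1. Each is the RefSeq stretch on GRCm38.p6 around a transcription start, written from 5' to 3' along the gene's strand, and for Pvalb and Syt2 the one of the 2 listed starts that lies upstream. They were searched on both strands for AGGTCA, the half-site bound by orphan nuclear receptors of the ROR and ERR families. A match is in capitals. The Tnnt1 promoter (chr7:4515926-4516225, minus strand) and the Pvalb promoter (chr15:78206351-78206650, minus strand) hold none. The Syt2 promoter (chr1:134646362-134646661, plus strand) holds 1, which begins at position 84 counted from its first base and reads on the minus strand, so that it is printed as its complement TGACCT.
Tnnt1: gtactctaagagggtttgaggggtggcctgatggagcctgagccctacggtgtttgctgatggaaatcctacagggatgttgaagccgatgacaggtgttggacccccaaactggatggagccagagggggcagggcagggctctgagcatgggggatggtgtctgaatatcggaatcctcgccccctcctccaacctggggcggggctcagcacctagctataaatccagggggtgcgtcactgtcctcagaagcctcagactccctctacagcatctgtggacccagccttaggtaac
Pvalb: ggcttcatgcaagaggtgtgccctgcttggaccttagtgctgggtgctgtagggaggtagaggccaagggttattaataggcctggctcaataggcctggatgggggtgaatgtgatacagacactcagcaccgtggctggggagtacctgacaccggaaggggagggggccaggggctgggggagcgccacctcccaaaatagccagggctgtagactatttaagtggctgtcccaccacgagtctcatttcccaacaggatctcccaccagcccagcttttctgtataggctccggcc
Syt2: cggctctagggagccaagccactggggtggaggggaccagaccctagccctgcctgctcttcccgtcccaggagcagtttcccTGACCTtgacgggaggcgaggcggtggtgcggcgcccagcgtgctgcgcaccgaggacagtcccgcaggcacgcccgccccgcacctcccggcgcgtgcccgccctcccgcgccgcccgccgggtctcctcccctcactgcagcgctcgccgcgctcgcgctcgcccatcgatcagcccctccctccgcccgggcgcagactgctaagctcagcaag
The site in Syt2 is also the longer form TCAAGGTCA, found in 126 of the 27025 genes with a listed promoter. AGGTCA alone was found in 18.1% of those genes. Among tested genes matched to a promoter it was present in 59 of 381 (15.5%) of those called higher in Som_1 than in Som_2, in 27 of 227 (11.9%) of those called lower and in 1339 of 9386 (14.3%) of all. These are counts of letters in a window, and say nothing of binding.

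Across all genes, Som_1 and Som_2 were compared on sums per animal with edgeR's quasi-likelihood test and the animal as a block, and a gene is said to be called where its Benjamini-Hochberg adjusted p was under 0.05. Of 13776 genes tested, 826 were called (6%), 485 higher in Som_1 (3.52%) and 341 lower (2.48%). Without animal 2 the number was 375. The authors formed the clusters from these same cells and genes, so these calls are a description of how the clusters were drawn and not a test that they differ. Values are given as log2 differences with the standard error of the fit over 3 animals. The median of all genes was -0.12 on this scale, against which each gene group below is to be read.

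Many genes of fast firing and of thick axons were higher in Som_1 than in Som_2. Of 19 such genes tested 10 were called higher and 1, the sodium channel subunit gene Scn2b, lower, and their median was 0.68. The 3 neurofilament chains moved together. Nefm, the medium chain, had 3554, 2651 and 3089 CPM in Som_1, against 715, 888 and 868 CPM in Som_2 and 1633 and 1680 CPM in Som_3. All Som_1 sums lay above all others, 1.99 ± 0.13 above Som_2 and 0.97 ± 0.15 above Som_3 on the log2 scale. Nefh, the heavy chain, had 638, 547 and 858 CPM in Som_1, against 250, 231 and 230 CPM in Som_2 and 404 and 336 CPM in Som_3, again without overlap. The light chain, Nefl, differed from Som_2 by 1.70 ± 0.12 and the related internexin Ina by 0.89 ± 0.11.

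Among the channel genes of that list Kcna1, Kcnc1, Scn1a and Scn4b were called higher and Scn2b lower. Most of the others were not called, and Kcna6 (-1.16), Kcnc2 (-0.40) and Kcnab1 (-0.20) had negative log2 differences. Kcna1, a Kv1 channel subunit of the axon and its terminals, had 406, 316 and 330 CPM in Som_1, against 100, 134 and 151 CPM in Som_2 and 102 and 126 CPM in Som_3. The groups did not overlap, and the log2 difference was 1.55 ± 0.20 from Som_2 and 1.69 ± 0.24 from Som_3. Kcnab3, which is outside the list and encodes an auxiliary subunit of such channels, had 140, 119 and 105 CPM in Som_1, against 25.3, 28.8 and 18.4 CPM in Som_2 and 16.2 and 9.14 CPM in Som_3, also without overlap. The Kv3 gene Kcnc1, whose channel ends the spike quickly, was 0.53 ± 0.13 above Som_2, and the sodium channel gene Scn1a was 0.68 ± 0.12 above it. Scn4b, a sodium channel subunit tied to resurgent current, had 137, 170 and 150 CPM in Som_1, against 12.9, 40.6 and 42.8 CPM in Som_2. Its log2 difference was 2.44 ± 0.35, and no Som_2 value came near the Som_1 values.

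Of 34 genes of vesicles and release, 5 were called higher in Som_1 than in Som_2 (3 without animal 3) and 3 lower, with a median of -0.15. Vamp1, the vesicle SNARE of many fast terminals, had 486, 699 and 520 CPM in Som_1, against 200, 176 and 242 CPM in Som_2, a log2 difference of 1.54 ± 0.18. The complexin gene Cplx1 and the SNARE gene Snap25 were each 0.71 higher on the log2 scale, with SE of 0.10 and 0.07.

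**Figure D3:**
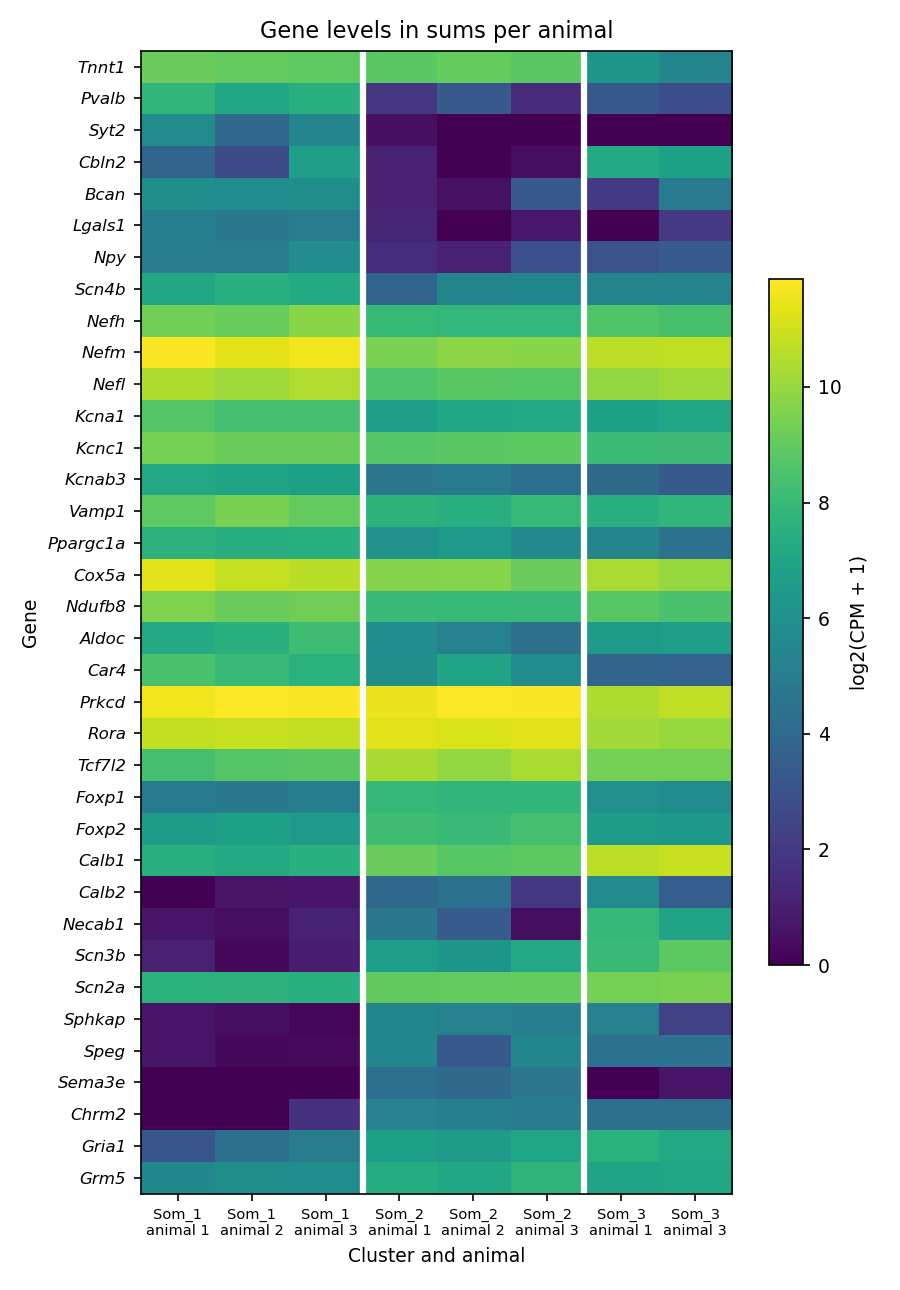
Levels of 36 genes (down the page) in the 8 sums of Som_1, Som_2 and Som_3 per animal (across), coloured by log2(CPM + 1). Pvalb and Syt2 are each brighter in all 3 Som_1 sums than in any other sum, Tnnt1 is bright in Som_1 and Som_2, and Scn3b is dark in Som_1 alone.

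Nuclear genes of the respiratory chain formed the group with the most calls. Of 79 tested, 64 were called higher in Som_1 than in Som_2 and none lower, 76 had a positive difference, and the median was 0.91. Cox5a, a subunit of cytochrome c oxidase, had 2565, 1805 and 1612 CPM in Som_1, against 812, 845 and 562 CPM in Som_2 and 1314 and 1023 CPM in Som_3. Every Som_1 sum was above every other, and the log2 difference was 1.51 ± 0.13 from Som_2 and 0.77 ± 0.15 from Som_3. Ndufb8, a subunit of complex I, had 765, 560 and 628 CPM in Som_1, against 254, 242 and 256 CPM in Som_2, a difference of 1.45 ± 0.13. The count of 64 was 63 of 78 after thinning to equal depth, 52 to 59 with 1 animal left out and 43 without the animal block. By contrast, none of the 7 tested genes encoded by the mitochondrial genome itself was called in either direction: mt-Cytb had 7407, 8129 and 6930 CPM in Som_1, against 9058, 6867 and 6153 CPM in Som_2, which overlap.

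Many genes of glycolysis were higher as well. Of 19 glycolytic genes 11 were called higher and none lower, with a median of 0.77. Aldoc, an aldolase, had 149, 184 and 288 CPM in Som_1, against 54.7, 36.5 and 19.8 CPM in Som_2, and Ldhb, a lactate dehydrogenase subunit, was 1.00 ± 0.12 higher. Aldoc is also an astrocyte gene. Of the 12 astrocyte markers 9 were under 1 CPM in Som_1, and their sum, mostly Slc1a2, was 48.2 to 206 CPM in Som_1 and 218 to 301 CPM in Som_2. Of the 3 of them that could be tested none was called and 1 was positive, and their part in the Aldoc result was not tested. Ppargc1a, the coactivator that drives mitochondrial gene expression, had 195, 168 and 178 CPM in Som_1, against 65.9, 80.6 and 47.4 CPM in Som_2 and 41.4 and 21.2 CPM in Som_3. All 3 Som_1 values were above all others, with a log2 difference of 1.60 ± 0.25 from Som_2 and 2.58 ± 0.31 from Som_3.

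Of 83 genes of cytosolic ribosomal proteins, 26 were called higher in Som_1 than in Som_2 and none lower, with a median of 0.60. Their calls depended on the animals: 16 were called without animal 1, 8 without animal 2 and 15 without animal 3, and 12 without the animal block.

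**Figure D4:**
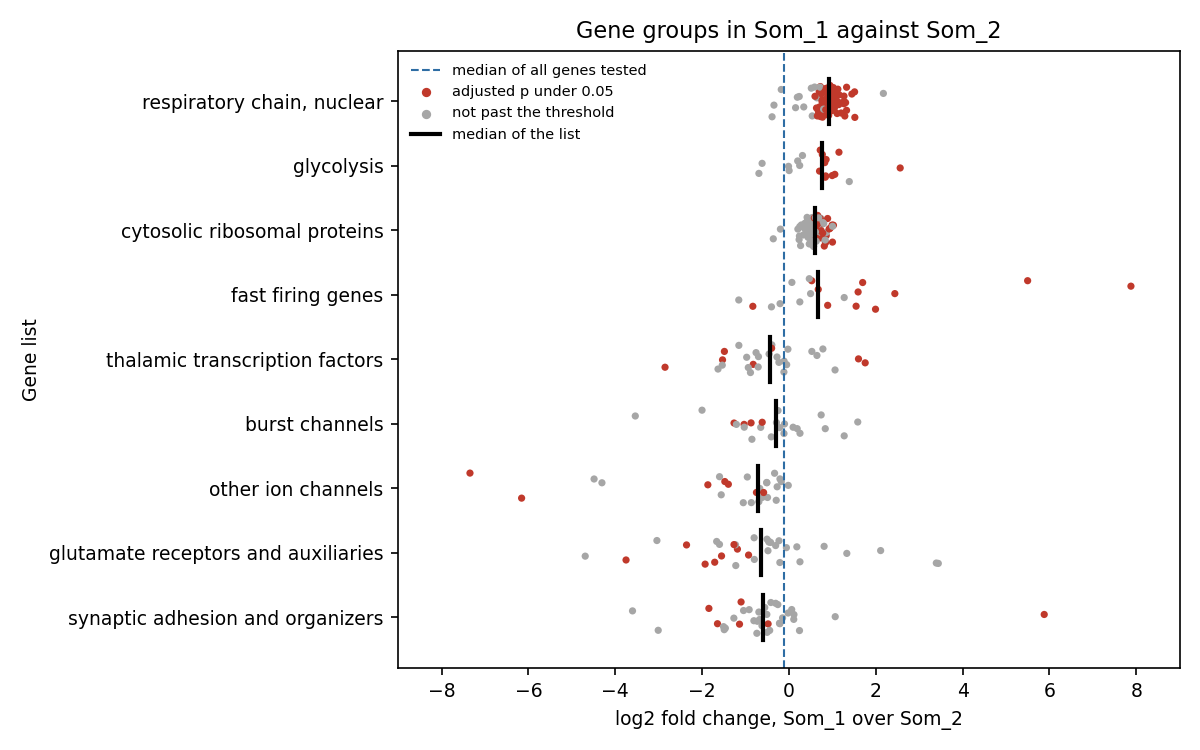
Log2 difference between Som_1 and Som_2 for each member of the gene groups, 1 point per gene, with called genes in red, the median of the group as a black bar and the median of all genes, -0.12, as a dashed line. Nuclear respiratory chain genes lie to the right of the dashed line with few exceptions (76 of 79 are positive), and the other ion channel genes lie left of zero (0 of 26 are positive).

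Genes of the matrix and of neuropeptides went both ways. Of 16 matrix genes 2 were called higher (Bcan and Sparcl1) and 2 lower (Ncan and Tnc), with a median of -0.39, and without animal 2 it was 1 higher and 0 lower. Of 10 neuropeptide genes 1 was called higher (Npy) and 1 lower (Vgf). Bcan, the brevican core protein of the matrix around fast-firing neurons, had 59.7, 53.0 and 60.0 CPM in Som_1, against 1.16, 0.454 and 8.48 CPM in Som_2. Npy, a neuropeptide gene, had 31.0, 31.9 and 55.2 CPM in Som_1, against 1.93, 1.14 and 6.36 CPM in Som_2. Neither pair of groups overlapped. Cbln2, a secreted organizer of synapses, varied widely over the animals and stood between the neighbouring clusters: 13.2, 5.64 and 96.3 CPM in Som_1, against 1.16, 0 and 0.354 CPM in Som_2 and 153 and 106 CPM in Som_3. It was called against Som_2 and not against Som_3, although all 3 Som_1 sums lay below those of Som_3. Cela1, a serine protease gene, had no UMI in Som_2 and was at least 70.4-fold higher in Som_1.

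Among the abundant genes lower in Som_1 than in Som_2 was Scn3b, the sodium channel beta 3 subunit. Scn3b lies on chromosome 9, from 40269217 to 40291618 on the plus strand. It had 1.15, 0.176 and 0.871 CPM in Som_1, against 99.4, 77.9 and 140 CPM in Som_2 and 264 and 467 CPM in Som_3. Som_1 was close to empty of Scn3b in every animal, with a log2 difference of -7.34 ± 0.35 from Som_2 and -8.93 ± 0.37 from Som_3. Most Som_2 cells showed none either: after thinning it was seen in 38 of 132 Som_2 cells (28.8%). The thinned shares were 39 of 60 in Som_3 (65.0%) and 2 of 90 in Som_1 (2.22%). Sphkap, which anchors protein kinase A, had 0.574, 0.352 and 0.124 CPM in Som_1, against 43.1, 36.3 and 32.5 CPM in Som_2. Sema3e, a secreted guidance cue, had no UMI in the 3 Som_1 sums, against 18.4, 16.1 and 25.5 CPM in Som_2, and was at least 98.8-fold lower. Chrm2, the inhibitory muscarinic receptor, had 0, 0 and 2.36 CPM in Som_1, against 37.1, 33.4 and 27.6 CPM in Som_2.

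Transcription factors of the thalamus were lower in part. Of 28 tested, 5 were called lower (Tcf7l2, Rora, Foxp1, Foxp2 and Zic1) and 2 higher (Id2 and Ppargc1a), with 3 called lower without the animal block. Tcf7l2, the Wnt pathway factor that maintains thalamic identity, had 333, 414 and 450 CPM in Som_1, against 1289, 988 and 1300 CPM in Som_2. Foxp1, a forkhead factor, had 29.3, 27.1 and 32.5 CPM in Som_1, against 238, 226 and 221 CPM in Som_2. The Som_1 sums of both genes lay below all Som_2 sums, with log2 differences of -1.49 ± 0.14 for Tcf7l2 and -2.85 ± 0.20 for Foxp1. Rora, the retinoid-related orphan receptor, had 1753, 1873 and 1738 CPM in Som_1, against 2588, 2364 and 2557 CPM in Som_2 and 1187 and 1062 CPM in Som_3, so Som_1 stood between its neighbours.

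Some genes of other ion channels, of burst firing and of glutamate receptors were lower in Som_1. Of 26 other ion channel genes 7 were called lower in Som_1 than in Som_2, none was called higher and none had a positive difference, with a median of -0.72. The count was 4 without animal 2 and 3 without animal 3. Scn2a, an axonal and somatic sodium channel, had 187, 198 and 176 CPM in Som_1, against 507, 522 and 536 CPM in Som_2. It was lower in every animal without overlap.

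Of 23 genes of burst firing, 4 were called lower (Cacna1g, Hcn4, Kcnd2 and Kcnq3) and none higher, and the count of lower calls was 2 without animal 2 and 2 without animal 3. Cacna1g, the T-type calcium channel behind thalamic bursts, had 157, 180 and 293 CPM in Som_1, against 492, 481 and 597 CPM in Som_2, a log2 difference of -1.26 ± 0.16. Of 32 genes of glutamate receptors and their partners, 8 were called lower and none higher, 4 without animal 2, with a median of -0.65. Gria1, an AMPA receptor subunit, had 8.03, 19.03 and 31.2 CPM in Som_1, against 103, 91.0 and 128 CPM in Som_2. Among 37 genes of synaptic adhesion 5 were called lower and 1 higher. Nrxn3, a neurexin, was lower with a log2 difference of -1.10 ± 0.13.

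Several genes of calcium-binding proteins other than parvalbumin were low in Som_1. Of 18 tested, 4 were called lower and 2 higher, with 2 lower without animal 2 and 1 higher without animal 3. Calb1, calbindin, had 171, 146 and 185 CPM in Som_1, against 566, 436 and 470 CPM in Som_2 and 1651 and 1881 CPM in Som_3. The 3 clusters did not overlap and Som_1 was the lowest. Calb2, calretinin, had 0, 0.529 and 0.622 CPM in Som_1, against 15.8, 20.7 and 2.83 CPM in Som_2 and 51.4 and 10.6 CPM in Som_3. Necab1, a neuronal calcium-binding protein gene, had 0.574, 0.352 and 1.24 CPM in Som_1, against 26.1, 9.76 and 0.354 CPM in Som_2 and 239 and 121 CPM in Som_3. For Necab1 the clusters Som_1 and Som_2 overlapped through animal 3, and the gene was not called between them, whereas Som_1 minus Som_3 was -7.28 ± 0.96 on the log2 scale.

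Against Som_3, for which 2 animals entered, 220 of 13776 genes were called (1.6%), 103 higher in Som_1 (0.748%) and 117 lower (0.849%), and 141 without animal 2. Among the genes higher in Som_1 was Prkcd, a protein kinase C isoform of sensory relay nuclei, which was 1.17 ± 0.08 higher on the log2 scale, and Rorb, another orphan receptor, had 291, 251 and 359 CPM in Som_1, against 103 and 55.7 CPM in Som_3. Car4, a carbonic anhydrase gene, had 349, 252 and 187 CPM in Som_1, against 13.4 and 12.4 CPM in Som_3. The lists behaved in part as they did against Som_2. Without animal 1 or 3 only 1 Som_3 sum remains. Of 19 fast-firing genes 9 were called higher and none lower (median 0.95, and 7 called higher without animal 2). Of 79 nuclear respiratory chain genes 7 were called higher and none lower, with 78 positive and a median of 0.52. That count of 7 was 20 of 78 after thinning, 9 without animal 2 and 2 without the animal block. Of 83 ribosomal protein genes 0 were called. Of 26 other ion channel genes 5 were called lower, and 3 without animal 3.

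Several of the genes lower in Som_1 than in Som_3 had little or no signal in Som_1. Pcdh8, a protocadherin, had no UMI in Som_1, against 98.3 and 89.1 CPM in Som_3, and was at least 468-fold lower. Cbln1, a synapse organizer of the same family as Cbln2, had 2.87, 0 and 6.09 CPM in Som_1, against 143 and 192 CPM in Som_3. Gap43, a growth-associated protein of axons, was well expressed in both: it had 375, 332 and 426 CPM in Som_1, against 1136 and 1497 CPM in Som_3. None of these overlapped. Prph, the peripherin filament gene, was also without a UMI in Som_1, but its Som_3 values of 100 and 5.31 CPM differed widely. The astrocyte marker Slc1a2 was also higher in Som_3, with 47.6, 69.2 and 203 CPM in Som_1, against 549 and 577 CPM in Som_3, and its part in these results was not tested.

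Cells of other systems give a comparison in animals that took no part in the somatosensory clustering, although each cluster was still drawn from its own cells. The motor, auditory and prefrontal animals also differ in age (69 to 112, 70 to 104 and 70 to 91, unit not given) and most lie in other batches, so system, age and animal cannot be told apart. The fits of Som_1 against these clusters carried the batch as a term, and the fit within the motor system, over all 4 motor clusters, carried the animal as a block. The motor system holds a cluster with parvalbumin as well: in Mot_1 Pvalb had 335, 495, 237, 217 and 290 CPM in motor animals 1 to 5, against 16.1, 7.11, 0.491 and 1.32 CPM in Mot_2 of animals 1, 3, 4 and 5. Between Mot_1 and Mot_2, 360 of 13222 genes were called higher (2.72%) and 281 lower (2.13%).

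The difference between Som_1 and Som_2 had a counterpart in that motor pair, which differed in depth as well. The pair was not planned and was chosen after the data were seen. When the authors clustered all systems together, 45 of 97 Mot_1 cells fell with 76 of 90 Som_1 cells. In the same way 122 of 152 Mot_2 cells fell with 123 of 132 Som_2 cells. The likeness of the 2 pairs is therefore a description and not an independent test. In motor animals 1, 3, 4 and 5 the median Mot_1 cell held 290826.5, 106063, 77682 and 128125 UMIs. The median Mot_2 cell of the same animals held 130833, 68395, 72890 and 71987.5 UMIs. The motor pair was not thinned to equal depth, and the part of depth in the values below was not tested. Of 483 genes called higher in Som_1 than in Som_2 and tested in the motor system, 476 (98.6%) were also higher in Mot_1 than in Mot_2, 236 of them called, with a median difference of 0.96 for the somatosensory pair and 0.82 for the motor pair. Of 341 called lower, 7 had a positive motor difference and 132 were called lower. Over the 12716 genes tested in both systems 49.6% were positive in the motor pair, and the 2 sets of differences had a Pearson correlation of 0.469 across genes, which are not independent replicates. Of 79 nuclear respiratory chain genes 59 were called higher in Mot_1 than in Mot_2, of 19 fast-firing genes 9 were, and of 26 other ion channel genes 10 were called lower.

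**Figure D5:**
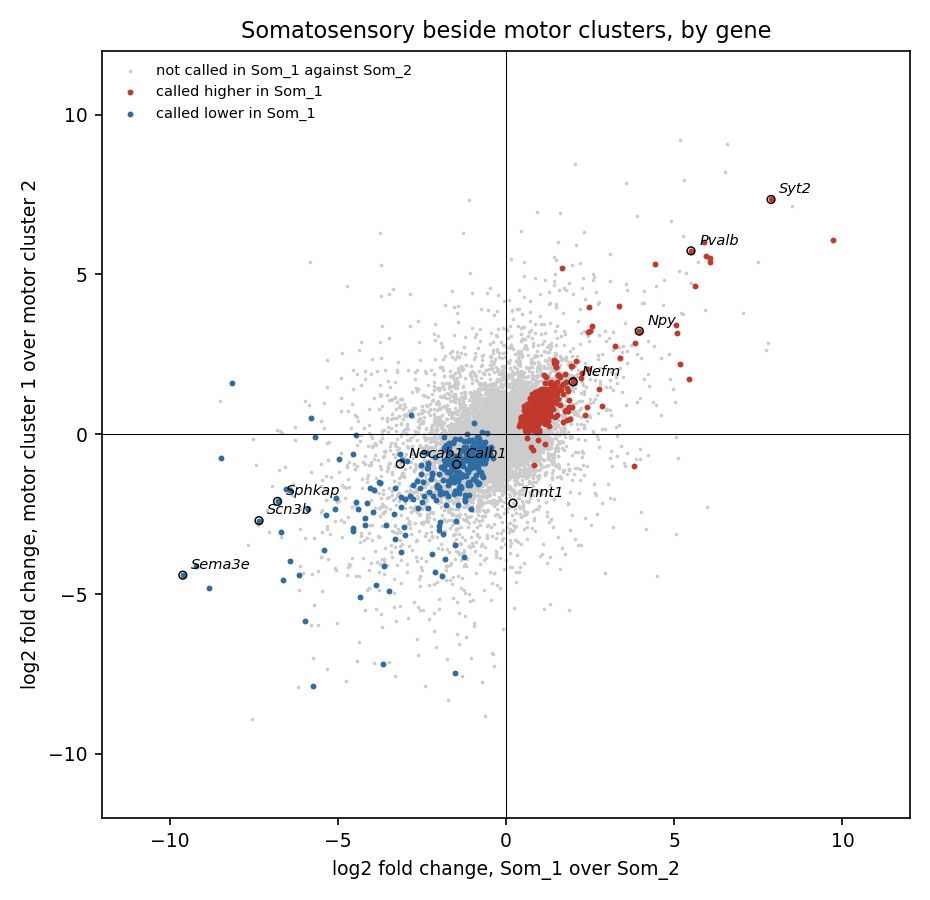
Log2 difference of each gene between Som_1 and Som_2 (horizontal) and between Mot_1 and Mot_2 (vertical), with the genes called higher or lower in Som_1 coloured. The genes called higher lie almost wholly above zero on the vertical axis (476 of 483), and of those called lower 7 of 341 lie above it.

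Set directly against Mot_1, with Pfr_1 in the same fit, edgeR called 0 of 13587 genes (0%), with 480 at an unadjusted p under 0.05. The same fit gave 25 calls after thinning and 16 with no batch term, and DESeq2 was not run for this comparison. Pvalb had a mean of 178 ± 45.3 CPM in Som_1 and 315 ± 111 CPM in Mot_1 (SD, n = 3 and n = 5), and Syt2 had 36.4 ± 18.6 CPM in Som_1 and 116 ± 38.2 CPM in Mot_1. Tnnt1 stood out in its values, with 573, 516 and 486 CPM in Som_1, against 63.2, 21.9, 117, 35.6 and 43.8 CPM in the 5 Mot_1 animals. Every Som_1 sum was above every Mot_1 sum. The log2 difference was 2.10 ± 0.39 with an adjusted p of 0.459 in edgeR's quasi-likelihood test, and it ranged between adjusted p of 4.69e-05 and 1.0 over the alternatives, among them 0.00326 with no batch term and 0.158 within batch 2. In Mot_2 of motor animals 1, 3, 4 and 5 Tnnt1 had 86.7, 416, 418 and 420 CPM.

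The clusters of other systems that hold Tnnt1 with little Pvalb were tested next. Since they are described by these 2 genes, their Tnnt1 and Pvalb values against Som_1 are a description and not a test. Against Mot_2, 87 of 13125 genes were called by edgeR's quasi-likelihood test (0.663%), 54 higher in Som_1 (0.411%) and 33 lower (0.251%). Against Aud_1 it was 137 (1.04%), 66 higher (0.503%) and 71 lower (0.541%). These counts moved with single animals. Against Mot_2 they fell to 20, 34 and 55 without somatosensory animals 1, 2 and 3, to 21, 54 and 55 without motor animals 3, 4 and 5, and to 31 and 42 without auditory animals 3 and 4, and they reached 183 without auditory animal 1. Against Aud_1 they were 54 and 54 without somatosensory animals 1 and 2, 75, 79 and 87 without motor animals 3, 4 and 5, and 297, 224, 31 and 46 without auditory animals 1 to 4.

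Pvalb and some genes of fast firing and of the axon were higher in Som_1. Of 19 fast-firing genes 4 were called higher than in Mot_2 and 6 higher than in Aud_1, none lower in either, and with 1 animal left out these counts ranged from 2 to 6 and from 2 to 7. Of 28 genes of neurofilaments and the axon cytoskeleton 2 were called higher than in Mot_2 and none lower (1 to 5 higher with 1 animal left out), and 4 were called higher than in Aud_1 and 1 lower (1 to 6 higher). The fast-firing list holds neurofilament genes too, and Nefm and Nefh are among its calls in both comparisons. The counts of the 2 lists are therefore not separate results. Pvalb averaged 178 ± 45.3 CPM in Som_1, 6.26 ± 7.21 CPM in Mot_2 and 14 ± 9.91 CPM in Aud_1 (SD, n = 3, 4 and 5). Its log2 differences were 4.95 ± 0.60 and 4.33 ± 0.52 (SE). It is among the fast-firing calls of both comparisons, although little Pvalb is how these 2 clusters were introduced. Nefm averaged 3098 ± 451 CPM in Som_1, 870 ± 166 CPM in Mot_2 and 728 ± 157 CPM in Aud_1, with edgeR adjusted p of 0.00278 and 0.000396. Kcna1 averaged 351 ± 48.1 CPM in Som_1, 149 ± 30.4 CPM in Mot_2 and 133 ± 33.8 CPM in Aud_1, and it was called against both. Kcnab3 gave unlike values in the other clusters: it averaged 122 ± 17.4 CPM in Som_1, 17.6 ± 2.31 CPM in Mot_2 and 116 ± 27.4 CPM in Aud_1, with a log2 difference of 3.00 ± 0.41 against Mot_2 and 0.34 ± 0.35 against Aud_1. Of 79 nuclear respiratory chain genes, 21 were called higher than in Mot_2 and 18 higher than in Aud_1, none lower in either, with medians of 1.11 and 0.88. With 1 animal left out these counts ranged from 3 to 32 and from 1 to 32, while the medians ranged from 0.88 to 1.21 and from 0.69 to 0.94.

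Some of the genes lower in Som_1 than in Som_2 were also called lower here, and others were not. Of 28 transcription factors 2 were called lower than in Mot_2 (Tcf7l2 and Foxp2) and 1 lower than in Aud_1 (Tcf7l2), and of 20 genes of burst firing 0 and 1 were. Scn3b averaged 0.731 ± 0.500 CPM in Som_1, 134 ± 61.4 CPM in Mot_2 and 218 ± 86.9 CPM in Aud_1, with log2 differences of -7.54 ± 0.78 and -8.19 ± 0.77 (SE). Necab1 averaged 0.723 ± 0.464 CPM in Som_1, 111 ± 36.5 CPM in Mot_2 and 137 ± 51.6 CPM in Aud_1. Tcf7l2 averaged 399 ± 59.7 CPM in Som_1, 1145 ± 87.5 CPM in Mot_2 and 1069 ± 99.99 CPM in Aud_1. These 3 genes were called lower in both comparisons. Tnnt1 was not called against Mot_2 (0.86 ± 0.40) or Aud_1 (-0.38 ± 0.38). Pth2r, a parathyroid hormone receptor gene, had no UMI in Som_1 and was at least 116-fold lower than in Aud_1.

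The authors also clustered the cells of all systems together into 9 joint clusters. There 76 of the 90 Som_1 cells (84.4%) fell into joint cluster 1, beside 45 Mot_1, 24 Pfr_1, 15 Mot_2 and 7 Aud_1 cells of its 174. Only 2 Som_2 and 2 Som_3 cells were in it. A further 9 Som_1 cells fell into joint cluster 2, which holds 123 of the 132 Som_2 cells, and 5 into joint cluster 4, which holds 56 of the 60 Som_3 cells. Pvalb was seen in 62 of the 76 Som_1 cells of joint cluster 1 after thinning, in 3 of the 9 and in 2 of the 5. The median cell held 161840.5 UMIs in the first of these groups, 80767 in the second and 145694 in the third. With cells pooled over animals, the split of these 14 cells from the rest went with Pvalb and, for the 9, with depth. The authors drew the joint clusters from these same cells, so this is a description and not a test.

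Within Som_1 the genes with the widest spread over the animals set animal 1 apart. Kit, a receptor tyrosine kinase gene, had 178, 0 and 33.6 CPM in Som_1 of animals 1, 2 and 3. Trio, a guanine nucleotide exchange factor gene, had 14.3, 133 and 128 CPM, and the other 8 genes chosen for spread over animals were all lowest in animal 1, as Trio was. That sum rests on 6 cells. Over cells the spread was led by mitochondrial transcripts and the nuclear RNAs Malat1 and Meg3. Ckm, the muscle creatine kinase, was also among the 10: it was found in 42.2% of thinned Som_1 cells and had 715, 348 and 307 CPM in the 3 animals.

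Markers of other cell types were low but not all at zero. At least 3 markers of 1 non-neuronal type were seen in 7 of the 90 Som_1 cells. Microglial markers summed to 160 to 187 CPM in Som_1, against 73.6 to 169 CPM in Som_2 and 182 to 191 CPM in Som_3, most of it C1qb, and 10 of the 12 were under 1 CPM in Som_1. Oligodendrocyte markers summed to 24.7 to 46.4 CPM in Som_1, against 42.0 to 67.2 CPM in Som_2. Endothelial markers summed to 447 to 551 CPM in Som_1 and 348 to 512 CPM in Som_2, almost wholly Bsg, which neurons express too. The 8 markers of oligodendrocyte precursors were all under 1 CPM in Som_1.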

How the data were processed

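The deposited gene table gives raw UMI counts per gene and cell for 1972 cells, with 90 spike-in counts. The deposited cell table gives each cell's animal, plate and cluster. The sequencing batch was taken from the sample records of the plates. Per the submitters' processing notes the authors used cutadapt 1.16, STAR 2.5.3 and Picard 1.12 with mm10. Which annotation, counting rule and strand setting were used is not given in the sources used here. Overlapping genes and near-identical copies, such as ribosomal protein pseudogenes, are therefore uncertain. Of 375 cell barcodes 372 occur on several plates, as designed barcodes do, and cells were told apart by plate and barcode. No further doublet caller was run.

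Animals were numbered within a system, and the animals, not cells, are the replicates. Counts were summed per cluster and animal where at least 5 cells were present. Levels are CPM, the summed count divided by all gene UMIs of the sum, spike-ins left out. edgeR 4.0.16 (R 4.3.3) with TMM scaling, its default filter on low counts and the quasi-likelihood test was fitted to 8 somatosensory sums with the animal as a block, which leaves 3 residual degrees of freedom. A block was used because clusters of 1 animal share their mouse and plates. Comparisons with Mot_2 and Aud_1 used 12 sums with the batch as a term, and Mot_2 of motor animal 2 (1 cell) was dropped. The comparison with Mot_1 used 10 sums, with Pfr_1 of prefrontal animals 3 and 4 in the fit, since those of animals 1 and 2 had 3 and 4 cells. P-values were adjusted over all genes tested. The motor pair came from 19 sums of the motor clusters with the animal as a block. The fits against Som_2, Som_3, Mot_2 and Aud_1 were tested on simulated data. In that order, 38, 31, 13 and 15 of 65 genes changed 4-fold were called. Of 65 genes changed 2-fold, 17, 6, 2 and 3 were called. Unchanged genes gave 1, 0, 1 and 2 calls. A gene that was not called may therefore still differ. The fit against Mot_1 was not simulated. Alternatives were DESeq2 1.42.0, no filter, 1 dispersion for all genes, no block or batch, batch 2 only, cells thinned to 20000 UMIs, cells with non-neuronal markers removed, and each animal left out. The motor pair was run under none of them, and the comparison with Mot_1 under part of them.

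Named genes are the 15 of each direction with the largest log2 difference among called genes of at least 10 CPM that kept their direction in every animal, members of the gene lists, and the 10 most variable over animals or cells at 50 CPM or more. Members and lists were chosen with earlier results of these data known. Intervals are 95% Wilson, and the floor for a group at 0 is 3 counts over the group. Gene positions are from GENCODE vM21, and promoters from RefSeq, both on GRCm38. Some genes are not reported here.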

Additional observations from a re-analysis of the deposited data

Results flagged for a closer look

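In 7 of 50 groups of 4 to 10 values that were examined, 1 value stood apart from the rest by Dixon's criterion at the 95% level, which chance alone passes in about 1 group in 20. Plate 16 of animal 3 held the highest share of Som_1 among the 6 plates of that animal, 65.2%. In Mot_2, motor animal 1 gave the highest median of UMIs per cell, 130800 after rounding to 4 digits. The same animal gave the lowest levels of Tnnt1 (86.7 CPM) and Ndufb9 (158 CPM) in Mot_2, and motor animal 5 gave the highest Kcna1 (195 CPM). In Aud_1, auditory animal 5 gave the highest Syt2 (1.51 CPM) and auditory animal 2 the highest Sparcl1 (604 CPM).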

How the results depend on the processing

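The somatosensory clusters of 1 animal share their mouse, so the replicate block was part of the reported fits. With no replicate block, 663 genes were called between Som_1 and Som_2 (826 with it) and 284 between Som_1 and Som_3 (220 with it). For Som_1 against Som_2 the count was 1696 by DESeq2 and 1471 with no filter, and 375 to 911 with 1 animal left out. Against Som_3 it was 715 by DESeq2, 629 with no filter, 412 after thinning and 141 to 293 with 1 animal left out. Against Mot_2 (87 reported) it was 490 by DESeq2, 281 with no filter, 266 after thinning, 172 with no batch term, 28 within batch 2 and 20 to 183 with 1 animal left out. Against Aud_1 (137 reported) it was 469 by DESeq2, 317 with no filter, 291 after thinning, 309 with no batch term, 378 within batch 2 and 31 to 297 with 1 animal left out. Against Mot_1 (0 reported; chosen after seeing the data) it was 25 after thinning, 16 with no batch term and 0 to 6 with 1 animal left out. The causes were not tested. Of 1893 values for 164 named genes and comparisons under these alternatives, none of the called ones changed direction, 256 lost the threshold and 13 gained it. The Som_1 sum of animal 1 rests on 6 cells, and the sums of fewest UMIs were those of Pfr_1 animal 4 (578081) and Aud_1 animal 5 (664161).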

Other observations

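Besides Tnnt1 and Ckm, some genes best known from muscle were detected in Som_1 and at least 1 other was nearly absent. They were picked out after their values were seen and get no test. Pdlim3, a protein of the muscle Z-line, had 48.2, 49.9 and 42.4 CPM in Som_1 of animals 1, 2 and 3, against 0, 6.36 and 0.354 CPM in Som_2. Myl4, an atrial myosin light chain, had 14.3, 10.2 and 12.2 CPM in Som_1, against 0.58, 0 and 0.354 CPM in Som_2. Fhl2, a LIM domain protein abundant in heart, had 10.3, 33.8 and 12.9 CPM in Som_1, against 0.967, 0.908 and 0.354 CPM in Som_2. The groups did not overlap for any of these 3 genes. In Som_3 of animals 1 and 3 Pdlim3 had 4.14 and 10.3 CPM, so its distance from Som_1 was smaller there. Speg, a striated muscle kinase gene, went the other way, with 0.574, 0.176 and 0.249 CPM in Som_1, against 42.1, 8.85 and 43.1 CPM in Som_2.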
